A study of Mus musculus with 16 samples.

Results

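The comparison described here sets RNA polymerase II (Pol II) occupancy in neural progenitor cells that carried a control siRNA against that in the same kind of cells with no siRNA. It used all 50 bp windows of 2 deposited chromatin immunoprecipitation (ChIP-seq) lists, 150856 of the 1459926 windows in the 9 lists of the series. The control siRNA library listed 116001 windows and the untreated library 34855. Both groups are neural progenitors made from V6.5, an established mouse embryonic stem cell line, through 4 days of embryoid bodies and then a monolayer in ITSF medium. Control siRNA cells were transfected with an siRNA against luciferase, an enzyme that mouse cells do not encode, and harvested 72 hours later. Untreated cells had no transfection. Both were crosslinked with 1% formaldehyde and precipitated with the same Pol II antibody. Each group is 1 library from 1 cell line, so no difference below could be checked against replicates, and none carries a p-value. The transfection, the culture and the day of preparation cannot be told apart. The pair is the only one in the series that compares Pol II without a knockdown of Cbx3.

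Pol II is the enzyme that transcribes protein-coding genes and many noncoding RNAs. It assembles with general factors and Mediator at promoters, often pauses just downstream of the start site, and then moves through the gene body. In ChIP-seq its strongest signal is therefore usually narrow and near start sites, with lower and broader signal over the bodies of highly transcribed genes. Regions are named here by position in build mm9, the build of the lists. Genes were not assigned, since the gene positions at hand belong to another build.

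Windows separated by up to 200 bp were merged, and the signal of a region is that of its highest window. This gave 16073 regions under control siRNA and 8183 in untreated cells. The lists do not start at the same level: the lowest listed signal was 6.01 under control siRNA and 9.02 in untreated cells. The highest was 158 under control siRNA and 168 in untreated cells, and the median region signal was 18.0 under control siRNA and 17.3 in untreated cells. Single windows made up 15.3% of the control siRNA regions and 15.2% of the untreated regions. The longest region listed 5200 bp under control siRNA and 3500 bp in untreated cells. The lists do not give sequencing depth, and a window missing from a list can hold signal just under its minimum.

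Nearly all strong Pol II sites were common to both lists, and the control siRNA list continued further down into weak sites. Of the 16073 control siRNA regions, 7115 were listed in untreated cells (44.3%, 95% Wilson interval 43.5 to 45.0%), and 8958 were not. Of the 8183 untreated regions, 7763 were listed under control siRNA and 420 were not. These intervals hold counting error alone, and adjacent windows draw on the same reads. By single windows, 28.3% of the control siRNA windows were listed in untreated cells, and 94.2% of the untreated windows were listed under control siRNA.

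The share found again followed the signal in one direction much more than in the other. In the highest decile of control siRNA regions by signal, 1588 of 1608 were listed in untreated cells (98.8%). In the 6th decile, with signals of 18.0 to 22.1, the share was 49.3%, and in the lowest decile it was 0.124%. Untreated regions were listed under control siRNA in 78.9% of cases in the lowest decile and in 99.4% in the highest. The 9th untreated decile, with signals of 24.6 to 30.1, had all of its 818 regions listed under control siRNA. The highest untreated decile lacked 5 of its 819 regions in the control siRNA list, and the strongest of these are described further on. When control siRNA windows below the lowest untreated signal were left out, a step chosen after the data were seen, 53.3% of the remaining 13282 control siRNA regions were listed in untreated cells. The scales of the lists differ, so this cut does not set equal minimums, and how much of the gap goes with the minimum was not tested.

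**Figure D1:**
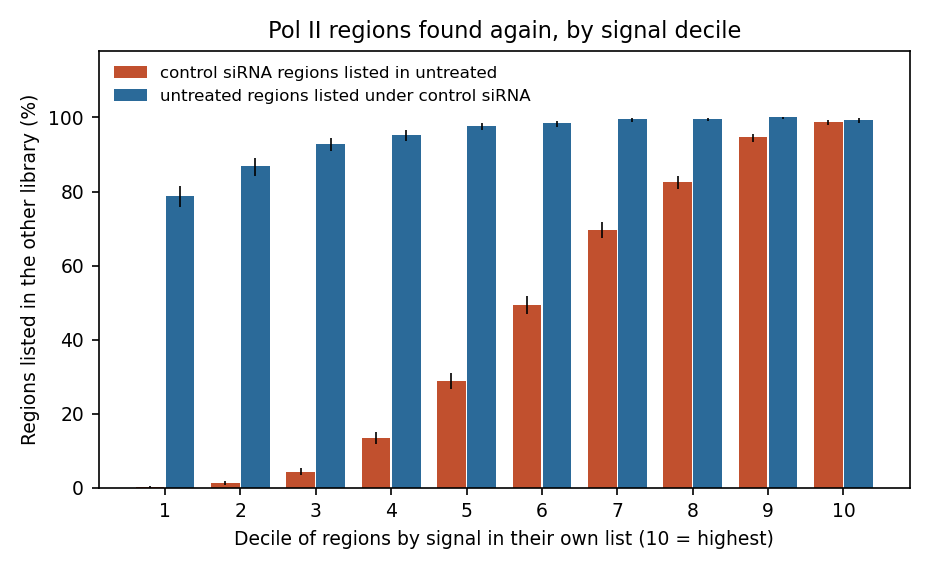
Share of regions listed in the other library (y axis, percent) by decile of signal in the region's own list (x axis, 10 the highest), for control siRNA regions sought in untreated cells and untreated regions sought under control siRNA. Bars carry 95% Wilson intervals; the control siRNA shares run from 0.124 to 98.8%, and the untreated shares from 78.9 to 100%.

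The tops of the lists were also set against each other at equal length. Of all 8183 untreated regions, 7058 overlapped the 8183 highest control siRNA regions (86.3%, interval 85.5 to 87.0%). Of the 1000 highest untreated regions, 601 lay among the 1000 highest control siRNA regions (60.1%, interval 57.0 to 63.1%). The share was 74.6% for the 4000 highest. The share was thus lower for the shorter lists. Less overlap would arise by chance alone in a shorter list, and the part of this in the lower shares was not tested.

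The lists were joined into 16133 regions over the windows of both. Of these, 7304 held windows of both libraries, 8682 of control siRNA alone and 147 of untreated cells alone. Regions of control siRNA alone were weak and short, with a median signal of 11 and a median of 3 windows. Of these regions, 2387 were single windows, and 170 had a signal above 30. Regions of untreated cells alone had a median signal of 12.1 and a median of 2 windows. Of these, 69 were single windows, and 4 had a signal above 30. The counts above 30 are not alike, since the scales differ. A signal of 30 lay near the control siRNA median of shared regions, 29.8, but near the start of the highest untreated decile, 30.1.

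Pol II maxima lay at nearly the same place in both libraries, but the listed stretch around them was longer under control siRNA. The highest window was the same in 32.8% of the 7304 shared regions, and it lay within 100 bp in 82.1%. The median distance was 50 bp, and 88 regions had maxima more than 500 bp apart. The same window was highest in 47.7% of the shared regions in the top decile of untreated signal and in 22.3% of those in the lowest decile. The median listed length of a shared region was 500 bp under control siRNA and 200 bp in untreated cells. More was listed under control siRNA in 94.98% of shared regions, and more in untreated cells in 149.

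Listed length depends on the minimum of each list, so the width at 50% of the maximum was also measured. It was taken in the 3598 shared regions whose maximum was at least 2 times the list minimum in both libraries. This width had a median of 350 bp under control siRNA (25th to 75th percentile 300 to 450 bp) and 250 bp in untreated cells (200 to 300 bp). It was wider under control siRNA in 76.3% of these regions, wider in untreated cells in 10.2%, and equal in the rest. Pol II regions were thus broader under control siRNA on a measure that the list minimum does not set. Fragment lengths of the 2 libraries were not analysed here, and their part in the width was not tested.

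**Figure D2:**
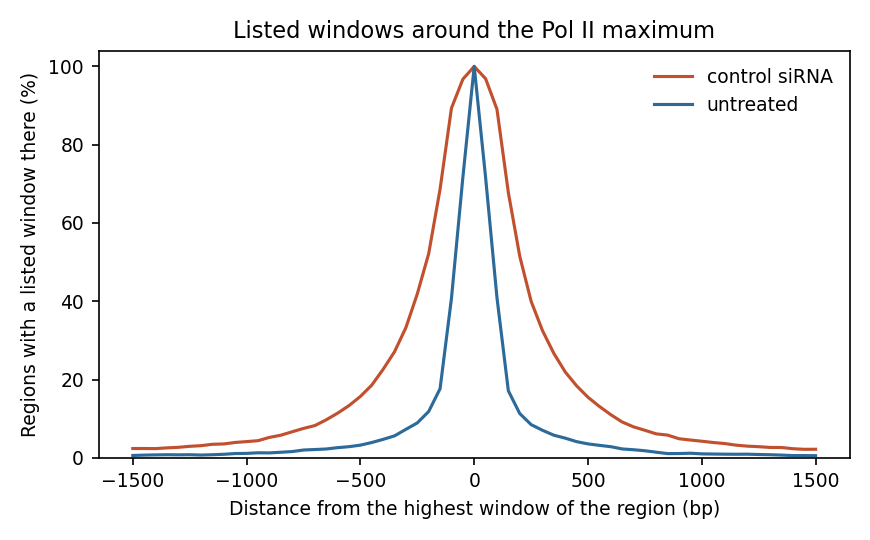
Share of the 7304 shared regions with a listed window (y axis, percent) at each distance from the highest window of the region in that library (x axis, bp), for control siRNA and untreated cells. At 150 bp downstream on the genome the share was 67.8% under control siRNA and 17.1% in untreated cells, and at 500 bp it was 15.5% under control siRNA and 3.56% in untreated cells.

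Since the scales of the libraries differ, shared regions were compared by rank. Each region received a percentile rank from 0 (lowest) to 100 (highest) among the same 7304 regions in each library. The ranks followed each other with a Spearman correlation of 0.67 over these regions, a description across regions that are not independent. Ranks differed by less than 20 percentile points in 4667 regions (63.9%), and the median size of the difference was 14.0 points. Of the 7304 regions, 1305 ranked at least 20 points higher under control siRNA (17.9%) and 1332 at least 20 points lower (18.2%). Of the 100 strongest shared regions of each library, 65 were the same.

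Differences were also read by size. Each signal was divided by the median of the 7304 regions in its own library, which was 29.8 under control siRNA and 17.9 in untreated cells. On the log2 scale of this ratio, 44 regions were higher by 1 or more under control siRNA (0.602%) and 224 were lower by 1 or more (3.07%). Neither split is a balance of change. Rank differences over the same regions sum to 0, so ranks cannot show a change common to all regions. That sum does not fix the counts of rises and falls, and their near-even split by rank was observed. The split by size leaves out regions of 1 library alone, among them 170 of control siRNA alone with a signal above 30.

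The strongest Pol II sites were near the top of both lists, with 1 exception among the 5 highest of each. The highest region in both lists lay at chr17:39980151-39982300, with a signal of 158 under control siRNA and 168 in untreated cells. It was 1 of 8 regions listed in all 9 libraries of the series, and its Cbx3 signal was 1412 in set 1 and 893 in set 2, so it is not particular to Pol II. The second highest under control siRNA, at chr10:39977251-39978900, had a signal of 157 under control siRNA and 102 in untreated cells, with rank 99.8 or above in both. The region at chr4:131825601-131826550 had 153 under control siRNA and 102 in untreated cells. The region at chr11:69571651-69573200 had 150 under control siRNA and 135 in untreated cells, and listed 1550 bp under control siRNA against 850 bp in untreated cells. The third highest in untreated cells, at chr8:11557251-11558700, had 121 under control siRNA and 144 in untreated cells. These 5 regions ranked above 99.7 in both libraries. The exception, at chr15:74917301-74917500, had rank 4 by signal in untreated cells, and control siRNA cells did not list it. The 5 highest in untreated cells also held chr17:39984701-39985300 and chr17:39982651-39982950, close to the highest region. Their Cbx3 signals in set 1 were 1284 and 1427, and their Cdk8 signals in control siRNA cells 425 and 233. Of the 5 highest untreated regions, 4 held Cbx3 of both sets, and chr8:11557251-11558700 held none. Most of the agreement among these untreated regions thus lay at 1 locus of chromosome 17 that is not particular to Pol II.

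The 10 largest rank rises were taken among the 5077 shared regions with at least 3 windows in both libraries. They lay on 8 chromosomes, and none was on chromosome 8. They ranked 63.4 to 84.1 points higher under control siRNA, with signals of 38.2 to 53.9 there and of 9.35 to 14.2 in untreated cells. All 10 listed only 150 to 300 bp in untreated cells, against 350 to 1100 bp under control siRNA, so they sat close to the untreated minimum. The largest rise was at chr10:21714101-21714700, with a signal of 48.9 over 600 bp under control siRNA and of 11.1 over 150 bp in untreated cells. Next came chr2:83564101-83565250, with 48.2 over 1100 bp under control siRNA and 11.99 over 300 bp in untreated cells. At chr6:119429101-119430050 the signal was 38.2 under control siRNA and 9.35 in untreated cells. At chr9:58883901-58885000 it was 47.1 under control siRNA and 13.7 in untreated cells. Of these 10 regions, 7 held Med26 of control siRNA cells and 7 held Cbx3 of set 1. Over all shared regions the shares were 46.3% for Med26 and 56.9% for Cbx3, and in the highest of 4 equal classes of control siRNA signal they were 57.9% for Med26 and 63.3% for Cbx3, so the counts are near those shares.

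The third Pol II library, from cells with Cbx3 siRNA, had no part in choosing these regions. It listed all 10 of the rises, with signals of 22.7 to 41.4. At chr10:21714101-21714700 it had 22.7, and at chr9:58883901-58885000 it had 41.3, on a scale with the same step as control siRNA.

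Of the 10 largest rank falls, chromosome 7 held 4 and chromosome 8 held 3, and the others were on chromosomes 2, 5 and 6. Their rank differences, control siRNA minus untreated, ran from -82.9 to -71.1 points, with signals of 14.5 to 19.8 there and of 25.6 to 33.4 in untreated cells. The largest fall was at chr8:13907601-13908000, with a signal of 14.9 over 400 bp under control siRNA and of 30.2 over 350 bp in untreated cells. At chr2:151969251-151969450 the signal was 17.6 under control siRNA and 33.4 in untreated cells, each over 200 bp. At chr8:124431401-124431650 it was 18.2 under control siRNA and 29.7 in untreated cells. At chr8:87607151-87607400 it was 19.5 under control siRNA and 30.4 in untreated cells. Cbx3 siRNA cells listed all 10, with signals of 8.80 to 26.4. Med26 of control siRNA cells was listed at 2 of the 10 and Cbx3 of set 1 at 5. In the second and the third of the 4 classes, which cover such control siRNA signals, Med26 lay at 20.7% and 39.1% of shared regions, and Cbx3 of set 1 at 41.7% and 53.3%.

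Over all regions listed in the 3 Pol II libraries the third library lay between the other two where these differed. Of 7087 such regions, 1281 ranked at least 20 points higher under control siRNA than in untreated cells, re-ranked over the 7087. Their median rank was 63.3 under control siRNA, 52.99 under Cbx3 siRNA and 25.3 in untreated cells. At the 1305 that ranked at least 20 points lower, the median rank was 25.7 under control siRNA, 36.8 under Cbx3 siRNA and 64.0 in untreated cells. The median rank of Cbx3 siRNA was thus closer to control siRNA than to untreated cells in both classes. Regions chosen for a gap between 2 libraries tend to lie between them in any other library. The correlation of ranks was 0.66 between control siRNA and untreated cells, 0.66 between Cbx3 siRNA and untreated cells, and 0.79 between Cbx3 siRNA and control siRNA. The 2 siRNA libraries share a transfection and the same step of values, and these were not told apart.

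One chromosome stood apart from all others. On chromosome 8, the 497 shared regions had a median rank difference, control siRNA minus untreated, of -8.52 points (interval of the median -11.5 to -6.63 points, counting regions only). The medians of the other 19 chromosomes lay between -1.40 and 2.21 points. The median rank of chromosome 8 regions was 52.6 under control siRNA and 70.7 in untreated cells. The called falls and rises were uneven there as well. On chromosome 8, 154 regions ranked at least 20 points lower under control siRNA (31.0%), where 18.2% of all shared regions did. Only 35 ranked at least 20 points higher (7.04%), where 17.9% of all shared regions did. The share of falls on the other chromosomes ran from 14.0 to 21.3%. On the log2 scale over the library's own median, the median difference was -0.32 on chromosome 8 and -0.05 over all other chromosomes, with chromosome X at -0.23.

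**Figure D3:**
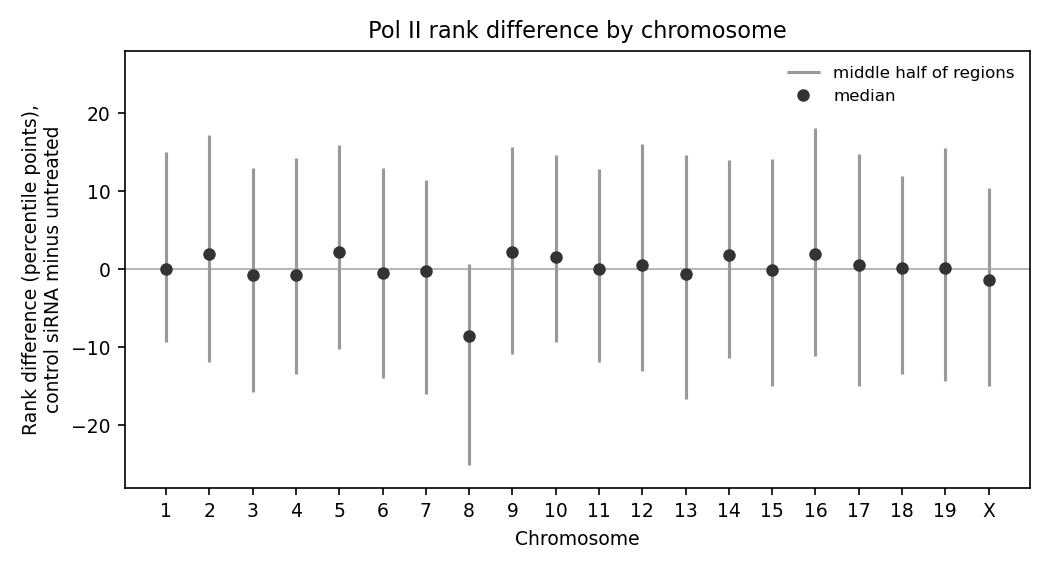
Rank difference of shared Pol II regions, control siRNA minus untreated (y axis, percentile points), by chromosome (x axis). Points are medians and lines run from the 25th to the 75th percentile of regions; chromosome 8 has a median of -8.52 points and the others lie between -1.40 and 2.21.

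The offset ran along the whole of chromosome 8. It was divided into 7 stretches of 20 Mb, each with 31 to 105 shared regions. The median rank difference, control siRNA minus untreated, was negative in every one, from -15.5 points in the stretch from 40 to 60 Mb to -6.08 points in that from 120 to 140 Mb. Of the 109 stretches of 20 Mb on other chromosomes with at least 20 shared regions, 3 had a median below -6.08 points. The lowest of these was on chromosome 4 from 0 to 20 Mb, at -8.67 points, and the next on chromosome 13 from 20 to 40 Mb, at -7.31 points.

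The third Pol II library was used to group regions of like signal. Shared regions were divided into 4 equal classes by their signal under Cbx3 siRNA. In the lowest class the median rank difference, control siRNA minus untreated, was -18.6 points on chromosome 8 and -4.08 elsewhere. In the second class it was -16.5 on chromosome 8 and 0.60 elsewhere, and in the third -9.56 on chromosome 8 and 2.46 elsewhere. In the highest class it was -3.22 on chromosome 8 and 2.20 elsewhere. Chromosome 8 was therefore lower than the rest in all 4 classes. Between the siRNA libraries, Cbx3 siRNA minus control siRNA, the 472 chromosome 8 regions listed in all 3 had a median difference of -0.28 points. For Cbx3 siRNA minus untreated, which shares the untreated library, it was -8.35 points.

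Counts of windows showed chromosome 8 in the same way. It held 6707 windows under control siRNA (5.78% of the list), 6037 under Cbx3 siRNA (5.97%) and 2957 in untreated cells (8.48%). Its share was 1.47 times as high in the untreated list as under control siRNA, and on the other autosomes this ratio ran from 0.891 to 1.10. These ratios compare lists of unlike length. Of the 100 highest regions, 7 were on chromosome 8 under control siRNA, 6 under Cbx3 siRNA and 14 in untreated cells. Of the 1000 highest, 93 were there under control siRNA, 97 under Cbx3 siRNA and 146 in untreated cells. Of the 8183 highest, 489 were there under control siRNA (5.98%), 509 under Cbx3 siRNA and 575 in untreated cells (7.03%). All of these are counts of regions at equal numbers, while the shares of the whole lists are of windows, so the sizes of the gaps are not compared. In the 2 Cbx3 libraries, also from untreated cells, chromosome 8 held 5.09% and 6.66% of windows. The Med26 and Cdk8 lists held 6.35 to 7.83% there, so the untreated Pol II list had the highest share of the 9. The inputs were not analysed here, so the amount of chromosome 8 DNA in each culture was not measured.

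**Figure D4:**
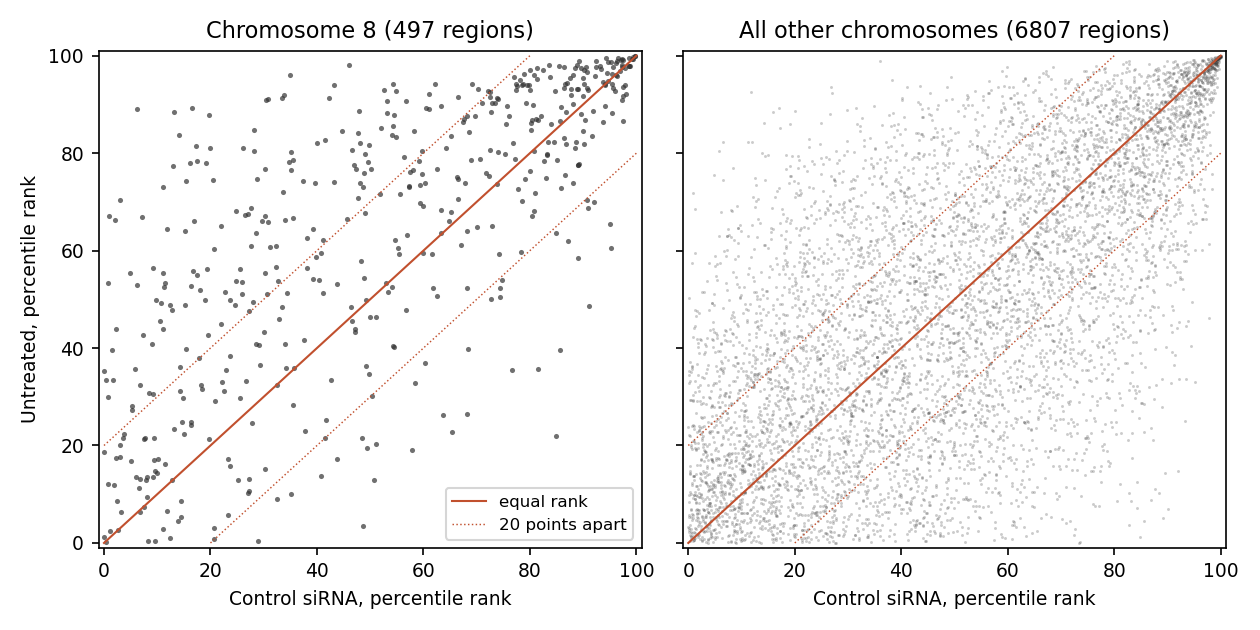
Percentile rank of each shared region under control siRNA (x axis) and in untreated cells (y axis), for the 497 regions of chromosome 8 (left) and the 6807 of all other chromosomes (right). The solid line marks equal rank and the dotted lines 20 points apart; on chromosome 8 154 regions lie beyond the upper line and 35 beyond the lower one.

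Chromosome 8 sites were also found again more often. Of 898 control siRNA regions of the joined list there, 497 were listed in untreated cells (55.3%, interval 52.1 to 58.6%). The other autosomes ran from 42.9 to 50.7%. In 4 equal classes of control siRNA signal, the share on chromosome 8 was 4.65%, 30.1%, 76.6% and 98.2% from the lowest to the highest. It was 2.001%, 20.9%, 64.3% and 94.4% on the other autosomes.

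Chromosome X was thinly covered in the untreated Pol II list, as it was in the Med26 and Cdk8 lists. It held 2009 windows under control siRNA (1.73% of the list), 1536 under Cbx3 siRNA (1.52%) and 194 in untreated cells (0.557%). The Med26 and Cdk8 lists, all from siRNA cells, held 0.382 to 0.772% of their windows there. The Cbx3 lists of untreated cells held 5.23% in set 1 and 1.86% in set 2. These lists are of unlike length, and X was not compared at equal numbers of regions. Of 394 control siRNA regions there, 85 were listed in untreated cells (21.6%, interval 17.8 to 25.9%). X regions were weak in every Pol II library, with median ranks of 14.2 under control siRNA, 13.1 under Cbx3 siRNA and 19.1 in untreated cells over the 78 regions listed in all 3. Of the 394 X regions, 134 lay in the lowest of the 4 classes of control siRNA signal and 176 in the second. In the lowest class 5.22% of X regions were listed in untreated cells, against 2.001% on the other autosomes. In the second it was 16.5% on X and 20.9% on the other autosomes. In the third, 36 of 70 X regions were listed in untreated cells (51.4%, interval 39.95 to 62.8%), against 64.3% on the other autosomes. The 85 shared X regions had a median rank difference of -1.40 points.

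The ratio of untreated to control siRNA windows was also read in stretches of 1 Mb. It was 0.300 over the whole lists. Among 347 stretches with at least 100 control siRNA windows, 7 of the 10 highest ratios were on chromosome 8 and the other 3 on chromosome 13. All 22 stretches of chromosome 8 lay above the median of the 347, which was 0.295. The highest was chromosome 8 from 11 to 12 Mb, with 174 windows under control siRNA and 112 in untreated cells. The second was chromosome 13 from 23 to 24 Mb, with 598 under control siRNA and 351 in untreated cells. Chromosome 13 from 21 to 22 Mb followed with 286 under control siRNA and 146 in untreated cells. At the other end, chromosome X from 7 to 8 Mb had 138 windows under control siRNA and 9 in untreated cells. Chromosome 2 from 168 to 169 Mb had 121 under control siRNA and 13 in untreated cells. These stretches were chosen for this ratio, after it was seen, so it is a description of them. The share found again rises with control siRNA signal, and the stretches were not matched for signal. How far a high or low ratio goes with strong or weak regions was not tested.

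The strongest regions of 1 library alone were of 2 kinds. Under control siRNA alone, the highest was a spot of 100 bp at chr11:3093401-3093500, with a signal of 74.2. Cbx3 siRNA cells had 73.2 there, and the Cbx3 sets 1075 and 1093. The next were broader. The region at chr7:3217651-3218600 had a signal of 51.5 over 950 bp under control siRNA, and 35.9 over 550 bp under Cbx3 siRNA. The region at chr3:103718051-103718850 had 48.0 over 650 bp under control siRNA and 31.9 under Cbx3 siRNA, and held Med26 and Cdk8 in both siRNA arms. The region at chr2:126959401-126959900 had 47.9 under control siRNA and 27.98 under Cbx3 siRNA. None of these was listed in untreated cells, and all 5 of the highest were listed under Cbx3 siRNA.

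In untreated cells alone, the 4 regions above a signal of 30 were 100 to 200 bp wide and held Cbx3 of both sets. Their Cbx3 signals were far above the median of all Cbx3 regions, which was 34.3 in set 1 and 13.1 in set 2. The highest lay at chr15:74917301-74917500, with a Pol II signal of 139 in untreated cells and Cbx3 signals of 691 and 979. No window within 1000 bp of it was listed in either siRNA Pol II library or in either Med26 library. Cdk8 had 1 window within that distance after Cbx3 siRNA and none after control siRNA. Next came chr3:5860701-5860800, with a Pol II signal of 80.7 in untreated cells, and chr11:108873251-108873350, with 52.3. Both were listed under Cbx3 siRNA, at 69.7 and 57.7, and held Cdk8 in both siRNA arms. At these spots the libraries of several antibodies are high together, and signal particular to Pol II cannot be told apart without the inputs. The fifth, at chr2:23427351-23427650, was of another kind, with 23.4 over 300 bp in untreated cells, 27.0 over 200 bp under Cbx3 siRNA, and Med26 of control siRNA cells at 10.4.

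Med26 and Cdk8 are parts of Mediator, the coactivator that bridges enhancer-bound factors and Pol II, and Cbx3 is the heterochromatin protein HP1 gamma, which is also found in transcribed genes. Med26 and Cdk8 were mapped in siRNA cells only, and Cbx3 in untreated cells only. Med26 of control siRNA cells lay at 46.3% of the 7304 regions in both Pol II lists and at 8.80% of the 8682 regions of control siRNA alone. Cdk8 lay at 11.1% of the regions in both and at 3.89% of those of control siRNA alone. Cbx3 of set 1 lay at 56.9% of the regions in both, at 26.0% of those of control siRNA alone and at 25.9% of those of untreated cells alone. Pol II of Cbx3 siRNA cells lay at 97.0% of the regions in both, at 44.0% of those of control siRNA alone and at 36.1% of the 147 of untreated cells alone.

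These shares rise with Pol II signal, so they were also read in 4 equal classes of control siRNA signal. The classes are broad, and signal and length within a class were not matched. By deciles of control siRNA regions, 281 of the 8th, 87 of the 9th and 20 of the 10th were missing from the untreated list. Over all classes, shared regions had a median of 10 control siRNA windows, and regions of control siRNA alone 3. A longer region has more room to overlap another list. In the highest class, Med26 lay at 57.9% of the regions in both lists (interval 56.3 to 59.5%) and at 41.4% of those of control siRNA alone (35.0 to 48.1%). In the second lowest class it lay at 20.7% of the regions in both lists and at 9.02% of those of control siRNA alone. For Cdk8 the shares in the highest class were 12.6% in both lists and 9.77% in control siRNA alone, and their intervals overlap. For Cbx3 of set 1 they were 63.3% in both lists and 52.6% in control siRNA alone. Pol II of Cbx3 siRNA cells lay at 99.9% of the regions in both and at 214 of the 215 of control siRNA alone in that class. Nearly all regions of either kind were thus listed under Cbx3 siRNA in that class, so this share cannot set them apart. The Cbx3 siRNA list, with 101091 windows, is also closer in length to the control siRNA list than the untreated list is. Transfection and list length were not told apart.

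**Figure D5:**
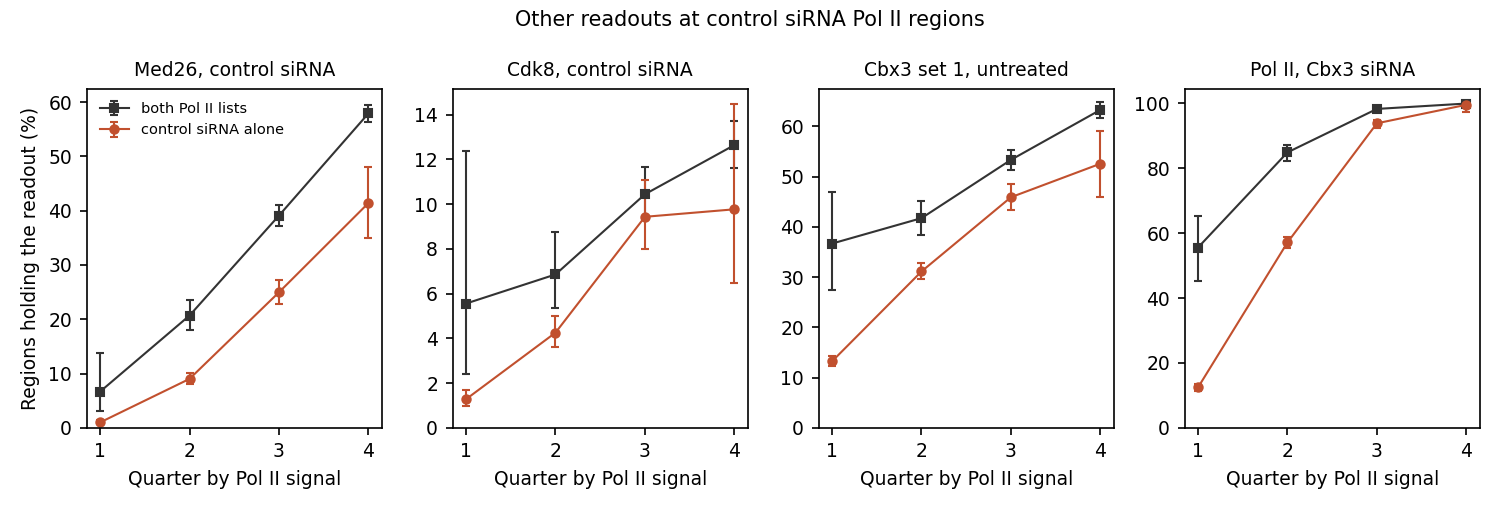
Share of control siRNA Pol II regions that hold Med26 or Cdk8 of control siRNA cells, Cbx3 of untreated cells (set 1) or Pol II of Cbx3 siRNA cells (y axes, percent, each panel with its own scale from 0), in 4 equal classes of control siRNA Pol II signal (x axes, 4 the highest). Squares are regions in both Pol II lists and circles regions of control siRNA alone, with 95% Wilson intervals; Med26 in the highest class lay at 57.9% of regions in both lists and at 41.4% of those of control siRNA alone.

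Among shared regions, the median change of rank differed little with the other factors. The 3382 regions with Med26 had a median rank difference, control siRNA minus untreated, of 1.16 points, and the 3922 without it of -1.51 points. Of those with Med26, 638 ranked at least 20 points higher (18.9%) and 498 at least 20 points lower (14.7%), where 17.9% and 18.2% of all shared regions did. The 811 regions with Cdk8 had a median difference of 0.01 points, and the 4158 with Cbx3 of set 1 of 0.48 points.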

How the data were processed

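The labels give 16 samples, of which 9 ChIP libraries had files. The 7 inputs were not analysed here. Per the submitters' processing notes, the authors aligned reads with Bowtie to mm9; the sources used here do not give the aligner's version, the window test, its minimum or any use of inputs. The deposited files list 50 bp windows with a signal made by the authors, never negative and in steps of 0.0220 (control siRNA) and 0.0211 (untreated). Signal is compared by rank within each library.

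Windows up to 200 bp apart were merged, and 1 shared bp counted as overlap. Named regions were the 10 largest rank rises and falls with 3 or more windows in both libraries, the 5 highest of each library and the 5 highest of each library alone. Members, lists and naming rule were chosen with earlier results of these data known. The chromosome and stretch comparisons, the width at 50% of the maximum and the cut of control siRNA at the untreated minimum were added after values were seen. Planned promoter and gene list comparisons were not run: the gene table is of GRCm38, and coordinates were not converted. Signal has no counts behind it, so no count test was run. Merging, overlap and ranking were tested on simulated data. The scripts ran on scipy 1.17.1, pandas 2.3.3 and numpy 2.4.6 under Python 3.11.15, with plots by matplotlib 3.10.9. Coordinates count from 1.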

Additional observations from a re-analysis of the deposited data

Results flagged for a closer look

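Cbx3 siRNA Pol II listed 27 windows on chromosome Y, in 4 regions with signals of 7.70 to 23.7, while Pol II of control siRNA and of untreated cells listed 0 each. Lists of other factors also held Y windows. Cdk8 had 6 after control siRNA and 9 after Cbx3 siRNA, and Med26 had 0 and 1. The Cbx3 sets of untreated cells had 4230 and 854. The Cbx3 siRNA Pol II library had no part in the comparison itself, and with 1 library per group its Y windows have no replicate check.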

How the results depend on the processing

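Alternatives are given where the value fell outside the narrow counting interval of the one reported. The cause of these moves was not tested. The share of control siRNA regions listed in untreated cells was 41.9% with adjacent windows only, 50.5% with merging at 1000 bp, 47.6% with each list cut at its median and 53.3% with control siRNA cut at the untreated minimum. In reverse, the share of 94.9% became 96.2% with merging at 1000 bp, 96.9% with the median cut and 94.2% with the untreated minimum. The equal-number share of 86.3% became 83.7% with merging at 1000 bp. It was 74.6% for the top 4000 and 60.1% for the top 1000, lists in which less overlap would arise by chance alone. The rank correlation was 0.69 with summed signal and 0.62 with 3 or more windows in both. By log2 size, 44 regions were higher and 224 lower. The chromosome 8 median was -18.6, -16.5 and -3.22 points in the lowest, second lowest and highest class by Cbx3 siRNA signal, and stayed negative, from -10.4 to -8.39, with other merging, summed signal, 3 or more windows or without regions of all 9 libraries.

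For regions in both lists minus control siRNA alone, the Med26 gap of 37.5 points was 5.67, 11.7, 14.1 and 16.5 points in the 4 signal classes and 35.5 within 500 bp. The Cdk8 gap of 7.21 was 4.28, 2.60, 1.01 and 2.87, and 6.14 within 500 bp. The Cbx3 gap of 30.9 was 23.4, 10.6, 7.44 and 10.7, and 10.96 with set 2. The Cbx3 siRNA Pol II gap of 53.02 was 43.1, 27.8, 4.43 and 0.386. Against untreated alone, the classes are by untreated signal, and the upper 3 hold only 31, 7 and 5 regions of untreated alone. There the Cbx3 gap of 31.1 was 44.5 in the third class and reversed to -16.0 in the highest. With set 2 it was 12.6 over all classes. The Cbx3 siRNA Pol II gap of 61.0 was 32.7, 42.3 and 39.9 in the same upper 3 classes. No paired analysis was possible because each group had 1 library. No replicate could be left out for the same reason.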
